A study of Danio rerio with 2 samples.

Results

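The Id genes id1, id2a, id2b and id3 were described in single cells sorted from zebrafish embryos, as 4 of the 27931 genes measured. They were chosen by name: id1 (ENSDARG00000040764) and id3 (ENSDARG00000054823) by identifier, id2b (ENSDARG00000029544) by its symbol, and id2a (ENSDARG00000055283) because the gene names given for this release list it under the older symbol id2. The rule itself uses no measured value. GFP-positive cells of the line Tg(-2.3 etv2:GFP)zf372, a reporter in which GFP stands under the control of etv2 sequence, were captured on a Fluidigm C1 chip at 20 somites and at 15-18 somites. The gene etv2 encodes a transcription factor that acts early in vessel and blood formation. No treatment was given, and the labels state growth at 28.5 °C. Each stage was 1 sample of 48 cells from pooled embryos, with its own day and chip, so that stage, day and chip cannot be told apart. Cells are not replicates, and every value below is therefore a description of these 96 cells without a test.

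Id proteins are helix-loop-helix proteins without the basic region through which their relatives touch DNA. They pair with E proteins such as Tcf3 and Tcf12 and keep these from DNA and from tissue-specific basic helix-loop-helix (bHLH) partners, among them Tal1 in blood and vessel precursors and Myod1 in muscle. In many tissues Id genes are transcribed in response to bone morphogenetic protein (BMP) signals that pass through Smad1 and Smad5, and in the mouse Id1 and Id3 are known for their part in vessel growth.

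The names of the 8 populations are those of the study, which clustered the same cells, so that differences between populations are not independent of the values described. EC2, arterial, venous and endothelial progenitor cells (EPC) are called endothelial here and hold 42 of 96 cells. Epithelial cells, erythrocytes, macrophages and a population numbered 3 hold the other 54. None of the 4 Id genes is in the authors' marker table (0 of 4). Endothelial cells carried between 4 and 6 of 6 endothelial markers (cdh5, kdrl, egfl7, tie1, erg and ecscr), and erythrocytes, epithelial cells and macrophages between 0 and 2. The study called population 3 tailbud, but its 4 matched tailbud markers averaged 1.25 log2 units there, the highest of the 8 populations (0.80 in EPC came next) but a low level, and it is called by its number. Between 1845 and 7337 genes were detected per cell (median 5135), and all 6 cells under 3000 genes belonged to population 3. Levels are means of log2(TPM + 1), with TPM the transcripts per 1000000 of a cell and both stages weighted equally, and a gene counts as detected above 1 TPM. TPM values keep no depth, so that a gene listed at 0 may still have been present.

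The gene id1 was abundant in nearly every endothelial and epithelial cell and low in macrophages and erythrocytes. It was detected in 86 of 96 cells (89.6%, exact 95% interval 81.7 to 94.9; all intervals cover the counting of cells only). In EC2 cells at 20 somites it was at 4190.1, 6301, 6408, 6747 and 6811 TPM, the highest group of all, and in the 2 EC2 cells at 15-18 somites at 316 and 4529 TPM. Arterial cells at 20 somites had 1372, 1710.2 and 4534 TPM, and the 10 arterial cells at 15-18 somites had 383 to 6839 TPM (median 2186). Venous cells varied least, with 2277, 2986, 3374 and 4336 TPM at 20 somites and 2075, 2423, 2575 and 3923 TPM at 15-18 somites. The EC2 and venous values at 20 somites overlapped only at their edge. Of the 3 arterial values at this stage, the lower pair lay below all EC2 and venous values and the highest among the EC2 values. In EPC, id1 lay between 416 and 2320.4 TPM at 20 somites (6 cells, median 1866) and between 0 and 4328 TPM at 15-18 somites (8 cells, median 2092).

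Outside the endothelium, epithelial cells reached the same range, with 61.8, 2229, 2466 and 2842 TPM at 20 somites and 1127 to 3990.1 TPM at 15-18 somites (6 cells, median 2308). By contrast, id1 was at 0 to 99.7 TPM in the 9 macrophages at 20 somites (median 1.21) and at 0 and 2.41 TPM in the 2 at 15-18 somites. Erythrocytes had 0.710, 4.90 and 82.1 TPM at 20 somites and 1.01 and 2.18 TPM at 15-18 somites. No macrophage or erythrocyte reached 100 TPM, whereas 41 of 42 endothelial cells exceeded it. The exception was 1 EPC at 15-18 somites, in which id1, id2a and id2b were listed at 0 although it had 5718 genes, 4 of 6 endothelial markers and 54.3 TPM of id3. The plot of all cells shows this step between the populations, together with the wide scatter of population 3.

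**Figure D1:**
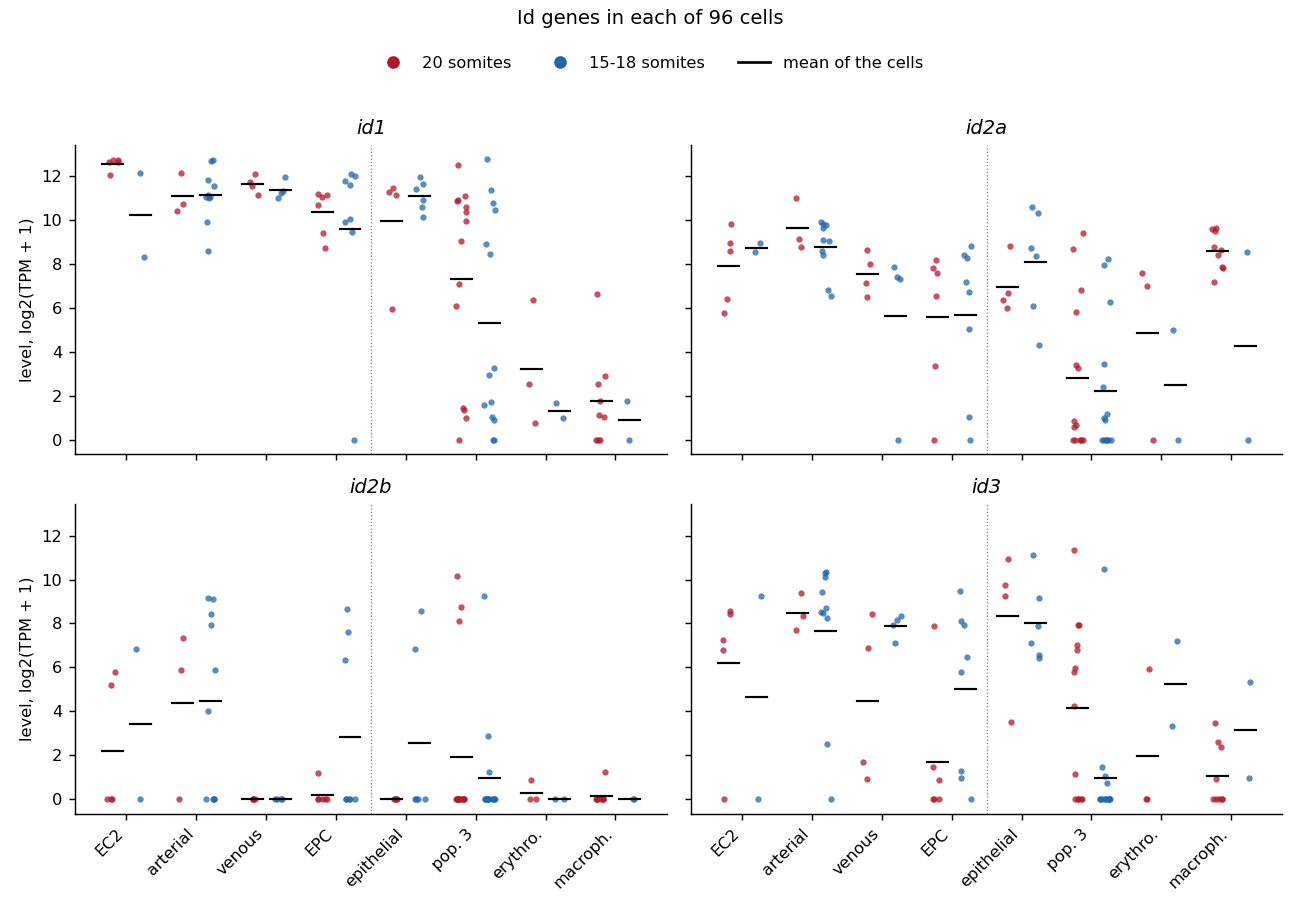
Level of each Id gene in every cell, as log2(TPM + 1) on the vertical axis, by population on the horizontal axis; each point is a cell (red, 20 somites; blue, 15-18 somites), black bars are means over the cells, and the dotted line separates the endothelial populations from the others. The gene id1 lies above 100 TPM in 41 of 42 endothelial cells and in 0 of 11 macrophages, id2b is at 0 in all 8 venous cells, and population 3 spreads over the whole range.

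The gene id2a was detected in 75 of 96 cells (78.1%, interval 68.5 to 85.9) and differed from id1 in being prominent in macrophages. Arterial cells held the highest level, with 430.1, 557 and 2069 TPM at 20 somites and 92.9 to 957 TPM at 15-18 somites (10 cells, median 533). EC2 cells had 52.9, 84.4, 388, 490.0 and 888 TPM at 20 somites and 371 and 490.1 TPM at 15-18 somites. All 13 arterial and all 7 EC2 cells had the transcript, and their ranges overlapped. In the 9 macrophages at 20 somites id2a lay between 145 and 785 TPM (median 393), 5 of them below and 4 within the range of the 3 arterial cells of that stage, while 1 of the 2 macrophages at 15-18 somites had 371 TPM and the other 0. These macrophages carried 0 to 2 of the 6 endothelial markers (median 1). Venous cells had 90.2, 138, 253 and 391 TPM at 20 somites and 0, 157, 167 and 229 TPM at 15-18 somites. EPC had 0 to 292 TPM at 20 somites (6 cells) and 0 to 448 TPM at 15-18 somites (8 cells), ranges that took in 7 of the 8 venous values, the exception being 391 TPM. Epithelial cells had 61.9, 82.3, 102 and 446 TPM at 20 somites and 19.2 to 1539 TPM at 15-18 somites (6 cells, median 374). In population 3, the transcript was detected in 13 of 28 cells (46.4%, interval 27.5 to 66.1), the lowest share of all populations.

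The gene id2b, the second zebrafish copy of Id2, was the rarest member, with 24 of 96 cells (25.0%, interval 16.7 to 34.9). It was found in 8 of 13 arterial cells (61.5%, interval 31.6 to 86.1), 3 of 7 EC2 cells and 4 of 14 EPC, but in 0 of 8 venous cells, which allows a share of up to 37.5%. Arterial cells at 20 somites had 0, 58.7 and 159 TPM, and those at 15-18 somites 0 to 572 TPM (10 cells, median 36.4). The 2 highest arterial values, 572 and 550 TPM, came from cells that were near-equal in the other members too. They had 2099 and 2093 TPM of id1, 957 and 893 TPM of id2a, and 1315 and 1273 TPM of id3. Both are counted in every share and interval, and whether they are independent cells was not tested. In EC2 cells id2b was listed at 0 in 3 of 5 cells at 20 somites, with 36.2 and 54.0 TPM in the others, and at 0 and 112 TPM at 15-18 somites. The lower end of the arterial interval lay below the venous limit, and the difference in detection was not tested. Elsewhere, id2b was detected in 6 of 28 cells of population 3, among them the cell with the highest value (1158 TPM), in 2 of 10 epithelial cells, in 1 of 11 macrophages at 1.36 TPM and in 0 of 5 erythrocytes. Because id2a and id2b are copies of 1 gene, reads from stretches they share could have been split between them.

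The gene id3 was detected in 61 of 96 cells (63.5%, interval 53.1 to 73.1) and was highest in epithelial and arterial cells. Epithelial cells had 10.3, 606, 854 and 1961 TPM at 20 somites and 86.6 to 2189 TPM at 15-18 somites (6 cells, median 187). Arterial cells had 210.0, 326 and 660.5 TPM at 20 somites and 0 to 1315 TPM at 15-18 somites (10 cells, median 390.0). The ranges overlapped, and the transcript was detected in 10 of 10 epithelial and 12 of 13 arterial cells. Venous cells had 0.917, 2.29, 116 and 349 TPM at 20 somites, against 139, 241, 282 and 326 TPM at 15-18 somites. In the 6 EPC at 20 somites id3 was detected in 2 cells, at 1.78 and 238 TPM, while in the 8 at 15-18 somites it was detected in 6 and reached 704 TPM (median 71.9). EC2 cells had 0, 109, 152, 341 and 380.1 TPM at 20 somites and 0 and 617 TPM at 15-18 somites. Macrophages did not exceed 39.8 TPM.

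Ordered by level, id1 was highest in venous (11.50), EC2 (11.39) and arterial cells (11.12), then in epithelial cells (10.53), EPC (9.98), population 3 (6.30), erythrocytes (2.29) and macrophages (1.33). For id2a the order began with arterial (9.19), EC2 (8.32) and epithelial cells (7.51), followed by venous cells (6.60), macrophages (6.43) and EPC (5.63), with erythrocytes (3.68) and population 3 (2.54) last. The gene id2b had 4.43 in arterial and 2.81 in EC2 cells and at most 1.51 elsewhere. For id3 epithelial (8.20) and arterial cells (8.08) led, then venous (6.19), EC2 (5.42), erythrocytes (3.61), EPC (3.36), population 3 (2.57) and macrophages (2.11). Of the 28 pairs of neighbours in these 4 orders, 0 differed by more than the larger SD of the single cells of the pair over both stages, a wide measure that mixes the stages. At 20 somites alone id1 in EC2 cells (12.55 ± 0.29, SD, n = 5 cells) lay above that in venous cells (11.63 ± 0.39, n = 4 cells) by more than either SD. The share of cells with each gene is plotted with its interval by population.

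**Figure D2:**
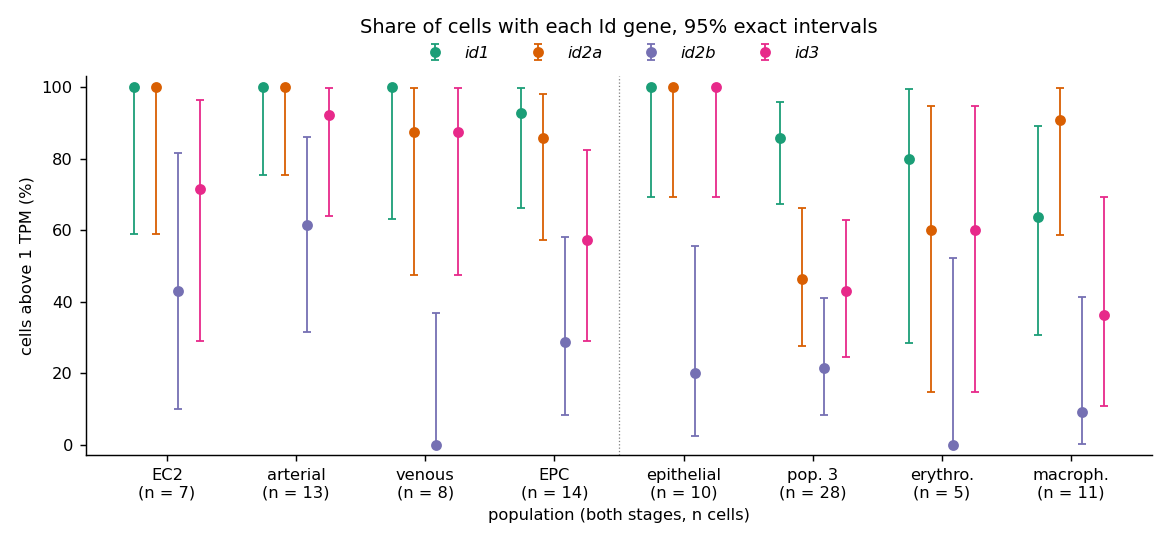
Share of cells above 1 TPM (vertical axis, percent) for each Id gene in each population (horizontal axis, with its number of cells); points are shares over both stages and bars are exact 95% intervals. The gene id2b reaches 61.5% in arterial cells and 0% in venous cells, and the bars are wide, with 5 to 28 cells in a population.

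In the comparison of endothelial with all other populations, all 4 Id genes were higher by at least 1 log2 unit, where 17.1% of the 12003 genes above 1 TPM in at least 10 cells were. The difference of id1 was 5.89 log2 units (11.00 in endothelial against 5.11 in other populations), with 5.84 at 20 somites and 5.93 at 15-18 somites, and 42 genes had a larger one. It was 2.40 for id2a (7.44 against 5.04), 1.64 for id3 (5.76 against 4.12) and 1.45 for id2b (2.19 against 0.74). The median of the Id genes was 2.02, against 0.13 over all genes tested. With a pseudocount of 10 TPM the difference was 0.75 for id2b and 1.60 for id2a, and with the log2 of the mean TPM 1.24 for id2a. At each stage alone the 4 differences were positive, the smallest being 1.11 for id2b at 20 somites. Of 15 dissociation stress genes, whose transcripts can appear while tissue is taken apart, 5 were higher and 2 lower by at least 1 log2 unit, where 11.6% of all genes were lower. Their mean level per cell ran from 1.91 to 8.82 in endothelial and from 0.42 to 8.19 in other cells, and their part in the Id values was not tested.

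Set against the endothelium one by one, the other populations differed among themselves. In macrophages all 4 Id genes were lower by at least 1 log2 unit (19.8% of all genes were), id2a only just (-1.01, 6.43 against 7.44), and the difference of id1, -9.67 (1.33 against 11.00), was the lowest of all 12003 genes. At 20 somites, however, id2a was higher in macrophages, at 8.59 against 7.67 in endothelial cells, and at 15-18 somites lower, at 4.27 against 7.21, where the macrophage value rests on 2 cells. With all cells of both stages pooled the id2a difference was 0.47, and with the log2 of the mean TPM -0.056. Of the stress genes, 4 of 15 were higher in macrophages, where 22.1% of all genes were higher, and 7 were lower. In erythrocytes all 4 were lower as well (25.2% of all genes were), with id1 at -8.71 (2.29 against 11.00), below which lay 4 genes, and id2a at -3.75 (3.68 against 7.44). Of the stress genes, 9 of 15 were lower in erythrocytes and 0 higher (median -1.43), where 25.0% of all genes were higher. Their part in this was not tested. Epithelial cells lay close to the endothelium in id1 (-0.47) and id2a (0.08), but only as means of opposite stage differences. These were -1.45 at 20 somites and 0.51 at 15-18 somites for id1, and -0.71 and 0.86 for id2a. In id3 epithelial cells exceeded the endothelium by 2.44 (8.20 against 5.76). Thus 1 of 4 genes passed 1 log2 unit upward, where 14.0% of all genes did. The stress genes were also highest in epithelial cells, with a mean level of 5.85. Of the 15, 8 were higher and 3 lower than in the endothelium by at least 1 log2 unit, where 20.3% of all genes were lower.

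Within the endothelium, id2a, id2b and id3 were higher in arterial cells than in progenitors by at least 1 log2 unit under each alternative run, and id1 only under some. In the levels as defined above, all 4 genes were higher in arterial cells than in EPC by at least 1 log2 unit, where 13.8% of all genes were: id3 by 4.72 (8.08 against 3.36), id2a by 3.56 (9.19 against 5.63), id2b by 2.92 (4.43 against 1.51) and id1 by 1.14 (11.12 against 9.98). The id1 difference was 0.75 at 20 somites, and it was 0.46 without the 1 EPC in which id1 was listed at 0, 0.93 with a pseudocount of 10 TPM and 0.56 with the log2 of the mean TPM, all under 1 log2 unit. With the log2 of the mean TPM the difference was 2.52 for id3 and 2.29 for id2a, and with a pseudocount of 10 TPM 1.60 for id2b. For id3 there were 35 genes with a larger difference and for id2a 116. The id3 difference was 6.77 at 20 somites and 2.66 at 15-18 somites, since EPC held little id3 at 20 somites. Of the stress genes, 9 of 15 were higher in arterial cells than in EPC and 2 were lower (17.4% of all genes were lower), and whether this bears on the Id genes was not tested. The differences at each stage are plotted by gene.

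**Figure D3:**
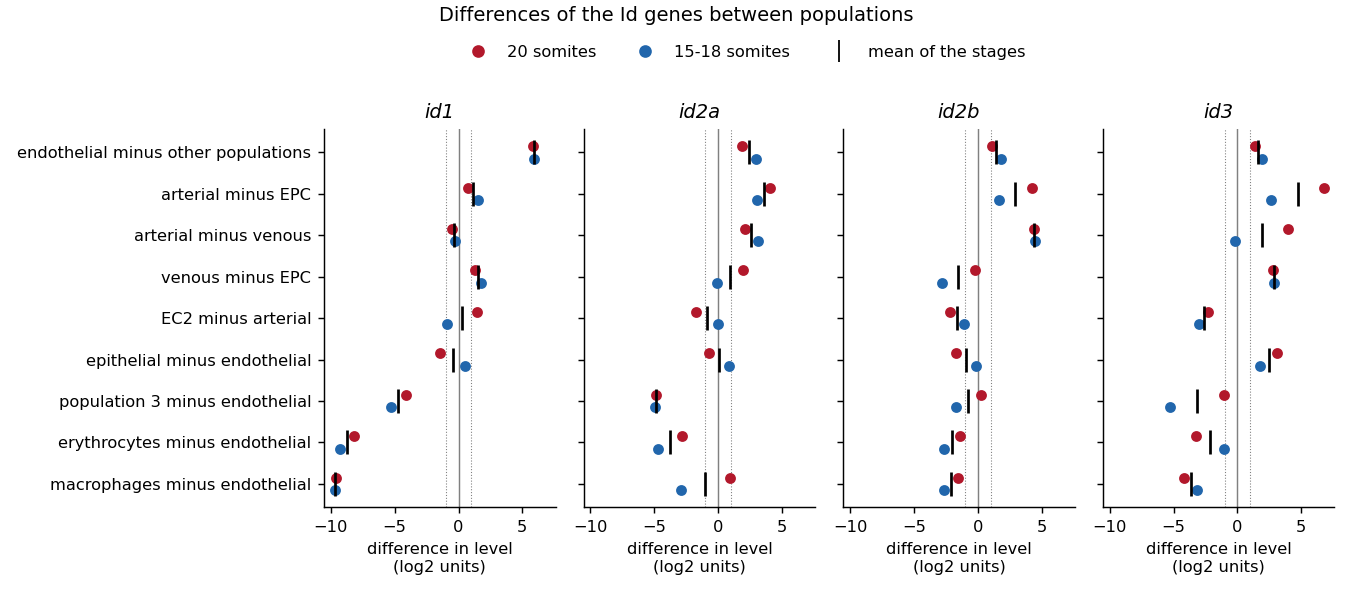
Difference in level (horizontal axis, log2 units, first-named population minus second) of each Id gene for 9 comparisons of populations; red points are 20 somites, blue points 15-18 somites, black ticks the mean of both, and dotted lines mark 1 log2 unit. The difference of id1 between macrophages and endothelial cells is -9.67, and red and blue points lie on opposite sides of 0 in 7 of 36 cases.

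Between arterial and venous cells, the difference of id1 was -0.38 (11.12 against 11.50), while id2a was higher in arterial cells by 2.60 (9.19 against 6.60) at both stages (2.07 at 20 somites and 3.12 at 15-18 somites). At 20 somites the lowest arterial id2a value (430.1 TPM) lay above the highest venous one (391 TPM), and at 15-18 somites the ranges overlapped. The gene id3 was higher in arterial cells at 20 somites, with 8.48 against 4.50 in venous cells, but not at 15-18 somites, with 7.67 against 7.89. For id2b no fold is given, because it was listed at 0 in every venous cell and the difference then rests on the pseudocount. Counting it, 3 of 4 Id genes were higher in arterial cells by at least 1 log2 unit, where 16.2% of all genes were. Of the stress genes 5 of 15 were higher and 2 lower, where 16.5% of all genes were lower.

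Venous cells exceeded EPC in id3 by 2.83 (6.19 against 3.36, with 2.78 at 20 somites and 2.88 at 15-18 somites) and in id1 by 1.52 (11.50 against 9.98). Thus 2 of 4 genes were higher by at least 1 log2 unit, where 13.8% of all genes were, and id2b was lower (17.0% of all genes were). The lower id2b came from 15-18 somites (-2.83, against -0.20 at 20 somites). Its size rests on the pseudocount, because id2b was listed at 0 in every venous cell. The id1 difference was 0.84 without the EPC listed at 0 and 0.68 with the log2 of the mean TPM, under which that of id3 was 1.03, and the lower id2b did not reach 1 log2 unit with a pseudocount of 10 TPM (-0.82). Of the stress genes, 4 of 15 were higher and 2 lower in venous cells. In EC2 against arterial cells, id3 (-2.65, 5.42 against 8.08) and id2b (-1.63, 2.81 against 4.43) were lower by at least 1 log2 unit, where 12.7% of all genes were, and id2a (-0.87) did not pass it. With the log2 of the mean TPM id3 did not pass it either (-0.97). The gene id1 was higher in EC2 than in arterial cells at 20 somites, at 12.55 against 11.10, and lower at 15-18 somites, at 10.23 against 11.14. The lower value rests on 2 EC2 cells, 1 of which had 316 TPM of id1 together with all 6 endothelial markers and 6340 genes.

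Most cells held several Id genes at once. At least 2 of the 4 were detected in 81 of 96 cells (84.4%, interval 75.5 to 91.0), with 40 of 42 endothelial cells (95.2%, interval 83.8 to 99.4) and 41 of 54 other cells (75.9%, interval 62.4 to 86.5). All 4 were detected in 17 cells, 13 of them endothelial and 8 of these arterial, and none in 2 cells. The most frequent combination was id1 with id2a and id3, in 31 cells, followed by id1 with id2a alone and by all 4 genes, in 17 cells each. Of 9 cells with id1 as the only Id gene, 7 belonged to population 3. The counts per population are shown in the stacked plot.

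**Figure D4:**
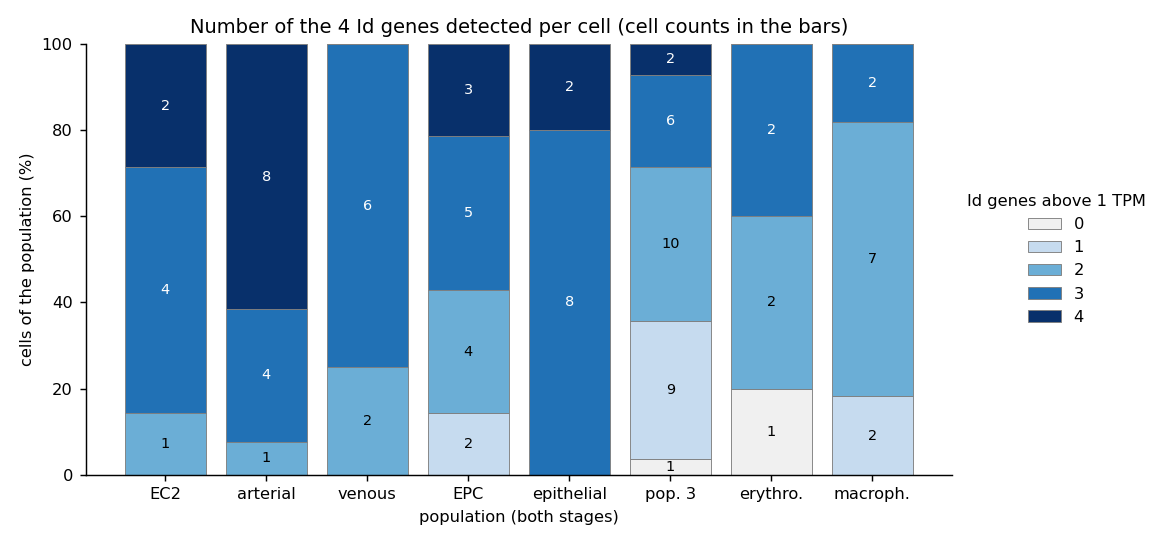
Share of the cells of each population (vertical axis, percent; horizontal axis, population) by the number of Id genes above 1 TPM, from 0 (pale) to 4 (dark), with the number of cells in each bar. All 4 genes were detected in 8 of 13 arterial cells and in 0 of 8 venous cells, and cells with 0 or 1 gene lie mostly in population 3.

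By pairs, id1 and id2a were detected together in 69 of 96 cells, id1 and id3 in 56, id2a and id3 in 51, id1 and id2b in 23, id2a and id2b in 22 and id2b and id3 in 19. All 15 endothelial cells with id2b also had id1 and id2a, and 13 of them had id3 (86.7%), against 96.3% with id1, 88.9% with id2a and 70.4% with id3 in the 27 endothelial cells without id2b. Of the 9 other cells with id2b, 8 had id1, 7 had id2a and 6 had id3. In these 15 cells id2a was at 31.6 to 2069 TPM (median 490.0), against 0 to 888 TPM (median 146) in the 27 endothelial cells without id2b. The ranges overlapped, and the medians lay in this order at both stages, with 430.1 against 138 TPM at 20 somites and 509 against 151 TPM at 15-18 somites. For id1 the medians ran the other way, with 2093 TPM in cells with id2b and 2953 TPM in those without. Cells with and without id2b had similar numbers of genes (medians 5326 and 5391). The mean level of the stress genes had a higher median in cells with id2b, at 5.52 against 4.82 log2 units. It was 4.81 against 3.93 at 20 somites and 5.77 against 5.16 at 15-18 somites. The ranges overlapped, and the part of the stress genes in this was not tested. Of the 15 cells, 8 were arterial. Within arterial cells alone the medians lay the same way, with 664 TPM of id2a in the 8 cells with id2b and 336 TPM in the 5 without, and with 2073 against 3594 TPM of id1, again with overlapping ranges. These 8 cells include the pair with near-equal values described above.

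The composition of the Id transcripts also differed between populations. In endothelial cells id1 made up a median of 84.3% of the summed TPM of the 4 genes and was the most abundant of them in 38 of 42 cells. This share was 89.8% in venous, 88.0% in EC2, 85.8% in EPC and 70.9% in arterial cells, where id2a contributed a median of 17.1% and id3 of 8.77%. In macrophages id2a was the most abundant in 10 of 11 cells and made up a median of 99.0%. Erythrocytes had no single leading member, with id2a first in 2 of 5 cells and id3 first in 2. The summed TPM had a median of 6492 in EC2, 4041 in arterial, 3106 in venous and 1980.0 in EPC cells, against 3084 in epithelial cells, 535 in population 3, 394 in macrophages and 178 in erythrocytes.

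Across all 96 cells, id1 and id3 had the highest correlation of the 6 pairs (Pearson's r = 0.52; 0.56 at 20 somites), a description over cells that share populations and libraries. At 15-18 somites their value of 0.48 lay below those of id1 with id2a (0.54) and of id2a with id3 (0.51). Within the 42 endothelial cells r was 0.13 for id1 and id3 (0.25 at 20 somites and 0.18 at 15-18 somites), 0.41 for id2a and id2b (0.44 and 0.43 at these stages) and 0.44 for id1 and id2a (0.20 and 0.53), with 1 EPC at 0 in both of the last pair. Spearman's rho over these cells was 0.27 for id1 and id3 and 0.56 for id2a and id2b. It was only 0.17 for id1 and id2a (0.067 and 0.21), so the order of the pairs depends on the measure. Many values of id2b are 0, and a correlation of this size in sparse data is given as a value only.

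Within populations the Id genes differed between the stages in mixed directions. Averaged over the 8 populations, id2a was higher at 20 somites by 1.0 log2 unit (6.74 against 5.74 at 15-18 somites, SD over populations 1.81) and id1 by 0.87 (8.49 against 7.62, SD 1.18), while id2b (-0.63, 1.15 against 1.78, SD 1.35) and id3 (-0.78, 4.55 against 5.33, SD 2.56) were lower. Each difference was smaller than its SD over populations. Only id2a reached 1 log2 unit, where 3.85% of all genes were higher by that much and 4.6% lower. The id2a value was 0.96 without the cells under 3000 genes, 0.58 with a pseudocount of 10 TPM, 0.52 with the log2 of the mean TPM and 1.40 with a pseudocount of 0.1 TPM. The largest part came from macrophages, with 8.59 at 20 somites against 4.27 in the 2 cells at 15-18 somites. Erythrocytes (4.86 against 2.50) and venous cells (7.56 against 5.63) followed, while id2a was lower at 20 somites in 3 populations. The gene id1 was higher at 20 somites in 6 of 8 populations, id2a in 5, id3 in 4 and id2b in 3. The stress genes ran lower at 20 somites, with 8 of 15 lower and 0 higher by at least 1 log2 unit, and a mean level per cell of 0.66 to 7.26 against 0.42 to 8.82 at 15-18 somites. Their part in the stage differences was not tested.

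The gene id3 showed the widest spread of stage differences. It was lower at 20 somites in venous cells (4.50 against 7.89 at 15-18 somites), EPC (1.71 against 5.01) and erythrocytes (1.98 against 5.25), and higher in population 3 (4.16 against 0.99) and EC2 cells (6.21 against 4.64). In population 3 it was detected in 9 of 14 cells at 20 somites (interval 35.1% to 87.2%) and in 3 of 14 at 15-18 somites (interval 4.66% to 50.8%). These intervals overlapped, as did the ranges of the single cells of the stages in each of these populations. Erythrocytes, for example, had 0, 0 and 59.8 TPM at 20 somites, against 8.97 and 145 TPM at 15-18 somites.

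Population 3 was split in its content of id1. Of its 28 cells, 10 had over 1000 TPM, 14 lay between 1 and 1000 TPM and 4 did not exceed 1 TPM. The 10 cells with the most id1 carried a median of 2.0 of 6 endothelial markers (range 1 to 6) and 359 TPM of etv2, those in between a median of 1.0 (range 1 to 5) and 39.6 TPM of etv2, and the 4 without id1 a median of 1.5 (range 1 to 6) and 85.0 TPM of etv2. The medians of markers and etv2 were thus higher above 1000 TPM of id1 than in the class in between. They did not fall further in the 4 cells without id1. The ranges of etv2 overlapped widely (1.37 to 7510, 0.83 to 6225 and 0 to 3071 TPM). The median numbers of detected genes were 4377 (range 3052 to 5036), 3767 (1845 to 5827) and 3661.5 (2172 to 4700) in these classes. The medians thus fell with id1, but the ranges overlapped widely. How far the number of detected genes sets the split was not tested. Against the endothelium, population 3 was lower in id2a (-4.90, 2.54 against 7.44), in id1 (-4.70, 6.30 against 11.00) and in id3 (-3.19, 2.57 against 5.76). These 3 of 4 genes passed 1 log2 unit downward, where 29.2% of all genes did and the median over all genes was -0.50. With the log2 of the mean TPM the differences were -2.18 for id2a, -1.38 for id1 and -0.34 for id3. For id2b, which did not pass 1 log2 unit (-0.74, 1.44 against 2.19), the sign changed under this setting (2.48, 6.29 against 3.81). Of the stress genes, 12 of 15 were lower in population 3 and 0 higher (median -2.41), where only 1.39% of all genes were higher. Their part in this was not tested.

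E proteins are the direct partners of Id proteins, and 2 of the 4 listed genes were matched, tcf3a and tcf12. Both were higher in endothelial than in other populations by at least 1 log2 unit, where 17.1% of all genes were. The difference was 3.15 for tcf12 (4.04 against 0.89) and 1.80 for tcf3a (3.43 against 1.62). The transcript of tcf12 was highest in venous cells (6.25), followed by EPC (4.31), arterial cells (3.23) and EC2 cells (2.38). Per cell, the summed TPM of the 4 Id genes exceeded that of tcf3a and tcf12 in 41 of 42 endothelial cells (97.6%, interval 87.4 to 99.9) and in 48 of 54 other cells (88.9%, interval 77.4 to 95.8). However, 7 of the 42 endothelial and 28 of the 54 other cells had neither E protein transcript above 1 TPM. In such cells, among them 12 of 28 in population 3, even little Id transcript exceeds the sum, so they say little about the balance. Median E protein sums were 444 TPM in venous, 160.4 in arterial, 126 in EPC and 73.9 in EC2 cells, and 9 of 11 macrophages and 6 of 10 epithelial cells had neither transcript above 1 TPM. The sum leaves out the unmatched E protein genes, and transcript sums are no measure of protein. The exception in the endothelium was the EPC without id1, with 54.3 TPM of Id transcripts, which lies below the line of equal sums in the scatter of Id against E protein transcripts.

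**Figure D5:**
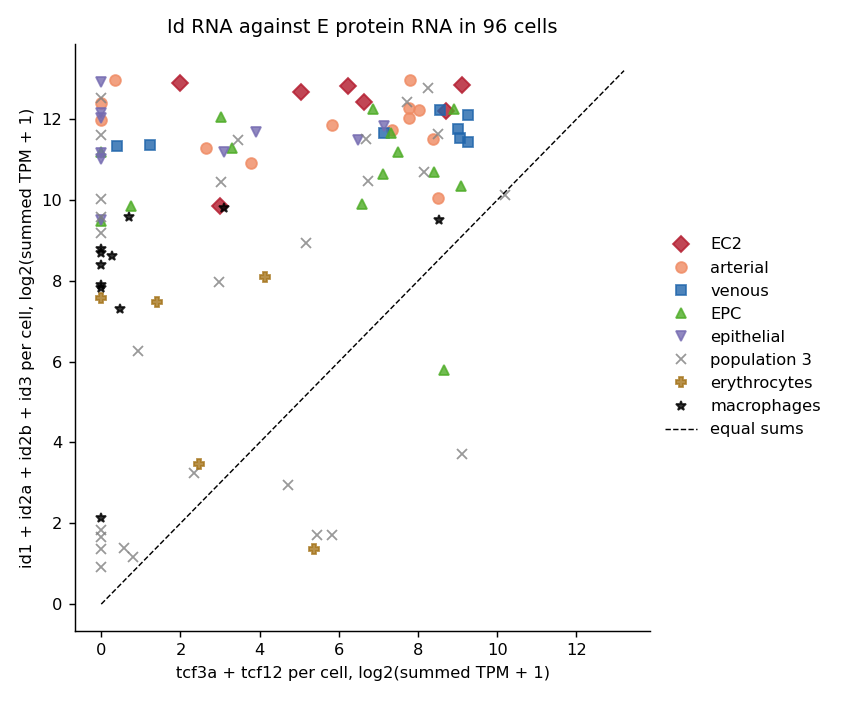
Summed TPM of the 4 Id genes (vertical axis, log2(sum + 1)) against that of tcf3a and tcf12 (horizontal axis, log2(sum + 1)) in each of 96 cells, marked by population; the dashed line marks equal sums. Points lie above the line in 41 of 42 endothelial cells, and many macrophages and epithelial cells lie on the left edge, where neither E protein gene was detected.

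Among the bHLH factors that act with E proteins, tal1, a regulator of blood and endothelial precursors, was highest in EPC (10.07) and erythrocytes (9.17) and lower in arterial (8.40), venous (6.71) and EC2 cells (6.71). In the mean of both stages EPC thus had the most tal1 and the least id3 of the endothelial populations. At 15-18 somites, however, the 2 EC2 cells had less id3 (4.64) than EPC (5.01). Over the 18 endothelial cells at 20 somites, tal1 and id3 had r = -0.59 (Spearman's rho = -0.69), and over the 24 at 15-18 somites r = -0.21 (rho = -0.17), each across populations of different level and within 1 library. With tal1 the other members had r of -0.33 (id1), -0.32 (id2a) and -0.21 (id2b) at 20 somites. At 15-18 somites these were -0.094, -0.25 and 0.052. The Notch-responsive factor hey2 was highest in EC2 cells (9.58 over both stages). These had the highest id1 values at 20 somites only. Over both stages id1 was highest in venous cells (11.50, against 11.39 in EC2 cells). At 15-18 somites id1 in EC2 cells (10.23, 2 cells) lay below that in venous (11.38) and arterial cells (11.14). Of the hematovascular bHLH factors, 3 of 6 matched genes passed the filter and all 3 were higher in the endothelium, where 17.1% of all genes were (median 3.13, against 0.13 over all genes). Of 14 matched mesodermal and myogenic factors only 3 passed, and 0 of them reached 1 log2 unit either way, where 28.7% of all genes did. Among these, myod1 was detected in 62 cells at levels of at most 2.76, and twist1b was listed above 1 TPM in all 96 cells with levels between 4.21 and 5.29.

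The genes of the BMP pathway were described in the order of the signal. Of the 4 BMP ligand genes that passed the filter 0, and of the 5 receptor genes 0, differed between endothelial and other populations by at least 1 log2 unit, where 28.7% of all genes did either way. Only 8 of 14 listed ligand genes and 5 of 13 listed receptor genes were matched, and the unmatched ones are not covered. The most widely detected ligand, bmp7a (81 cells), had 4.07 in arterial and 4.04 in EC2 cells, against 1.30 in venous cells. Of the 6 matched Smad and Smurf genes, 5 were higher in the endothelium, where 17.1% of all genes were (median 2.03, against 0.13 over all genes). The receptor-activated smad5 led with 4.16 log2 units and reached 8.13 in venous, 7.50 in arterial, 5.37 in EPC and 4.02 in EC2 cells, against 0.62 in macrophages and 0.95 in erythrocytes. Macrophages and erythrocytes were also the populations with the least id1. Within the endothelium the orders differed, as EC2 cells had the least smad5 but more id1 (11.39) than arterial cells (11.12) or EPC (9.98). Over endothelial cells r of id1 with smad5 was -0.15 at 20 somites and 0.26 at 15-18 somites. Over all cells it was 0.58 and 0.49. The inhibitory smad7 was highest in EC2 cells (5.44) and lower in venous cells (4.73), EPC (3.69) and arterial cells (2.51).

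Other listed genes known to respond to BMP did not share 1 pattern with the Id genes. Of the 4 that passed the filter, smad7, bambia and gata2a were higher in the endothelium, where 17.1% of all genes were. The gene msx1b was lower, where 11.6% of all genes were. The inhibitory Smad gene SMAD6 is not counted here or among the Smad genes above, because the listed names smad6a and smad6b were not matched. It had 5.07 in EC2, 4.37 in epithelial, 3.34 in arterial cells and 1.75 in EPC, against 0.069 in macrophages and 0 in erythrocytes. Like id1, SMAD6 was thus low in macrophages and erythrocytes, but in venous cells it lay below EPC. The pseudoreceptor gene bambia had 7.04 in EC2 and 4.07 in arterial cells, against 1.66 in venous cells and 1.61 in EPC. The gene gata2a, a factor of blood and vessel precursors, was highest in EPC (9.0), and msx1b was highest in epithelial cells (5.93). Of the 3 BMP antagonist genes that passed, bambia, already counted above, and tsku were higher in the endothelium, where 17.1% of all genes were. The secreted inhibitor gene tsku was highest in arterial cells (6.05), like id2a, with 2.72 in EC2, 2.08 in venous cells and 1.91 in EPC.

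A further family member, id4, was detected in 13 of 96 cells (13.5%, interval 7.41 to 22.0). It was found in 5 of 14 EPC, 3 of 8 venous and 2 of 13 arterial cells and in 3 of 28 cells of population 3, and in 0 of 7 EC2 cells, which allows up to 42.9%. The highest value was 373 TPM, in an EPC at 15-18 somites.

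The genes whose values over cells were most like each Id gene were ranked by the smaller of the r values at the 2 stages, each over 48 cells. For id1 these were flna (0.72), SERPINH1 (0.67) and akap12b (0.65), which encode the actin cross-linker filamin A, a collagen chaperone and a scaffold for protein kinase A, and 31 of 12003 genes reached 0.5. For id2a they were the zinc finger factor gene KLF6 (0.62), the keratin gene krt8 (0.62) and tmsb4x (0.60), which encodes an actin-binding thymosin, and 17 genes reached 0.5. KLF6 is itself among the stress genes listed here. For id3 they were flna (0.52), plekhn1 (0.50) and FKBP14 (0.49), a helper of collagen folding, and id1 came next at 0.48. The gene id2b had no gene at 0.5, and its closest were the inhibitory Smad gene SMAD6 (0.41), the histone demethylase gene kdm6bb (0.39) and SLC29A1 (0.39), a nucleoside transporter gene, values that are weak in a gene with so many cells at 0. Cells of 1 stage share a chip and the same populations, so that genes of the same populations score high.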

How the data were processed

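The authors deposited 1 TPM value per gene and cell (27931 genes, 96 cells, each cell summing to 1000000). Per the methods, Kallisto, run within AltAnalyze, quantified the reads on Ensembl release 72 (Zv9), whose version is not given in the sources used here. The earlier stage is named as in the labels, although the methods give a slightly narrower range. The authors' deposited grouping and marker table (other units: population numbers and gene symbols) gave the population of each cell and part of the symbols, of which 20017 identifiers have one. Log2 values of a subset of genes and a list of raw files were not used. Of 147 list entries in 17 lists, 97 were matched. The 4 members and all lists were chosen with earlier results of these data known.

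A level is log2(TPM + 1), with a pseudocount of 1 TPM, averaged over the cells of a stage, then over both stages, and over populations with equal weight. Called means a difference of at least 1 log2 unit among the 12003 genes above 1 TPM in at least 10 cells. On this scale the change of a low gene comes out too small. With 1 sample per stage no test was possible. Intervals on shares are Clopper-Pearson (exact, 95%), and 0 cells are given with the limit that 3 cells of the total set. The text names the 4 members, the 3 genes most like each, and list genes above 1 TPM in at least 20 of 96 cells; id4 was named as a further member of the family. No caller of doublets was run. Depth per cell cannot be read from TPM. The calculations used Python 3.11.15, numpy 2.4.6, pandas 2.3.3, scipy 1.17.1 and matplotlib 3.10.9, and the code was tested on simulated data. Coordinates and sequences are not given; no Zv9 annotation was used here. Alternatives were other pseudocounts, the log2 of the mean TPM, pooled cells, other detection minimums and filters, and leaving out cells under 3000 genes.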

Additional observations from a re-analysis of the deposited data

Results flagged for a closer look

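In 7 of 36 combinations of gene and comparison of populations, the difference had opposite signs at the stages. Each stage is 1 sample, and whether the stages differ was not tested. For id3, arterial minus venous was 3.98 log2 units at 20 somites and -0.22 at 15-18 somites. For id2a, venous minus EPC was 1.98 at 20 somites and -0.052 at 15-18 somites, epithelial minus endothelial was -0.71 at 20 somites and 0.86 at 15-18 somites, and macrophages minus endothelial was 0.93 at 20 somites and -2.94 at 15-18 somites, where there were 2 macrophages. For id1, EC2 minus arterial was 1.45 at 20 somites and -0.92 at 15-18 somites, where there were 2 EC2 cells, and epithelial minus endothelial was -1.45 at 20 somites and 0.51 at 15-18 somites. For id2b, population 3 minus endothelial was 0.23 at 20 somites and -1.72 at 15-18 somites.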

How the results depend on the processing

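No difference of an Id gene between endothelial and other populations or between the stages changed sign under the alternatives run, but sizes moved. Endothelial minus other populations was 6.52 for id1 and 2.11 for id2b with a pseudocount of 0.1 TPM. With 10 TPM it was 4.65 for id1, 1.60 for id2a, 0.75 for id2b and 1.18 for id3, so that id2b no longer reached 1 log2 unit. With the log2 of the mean TPM it was 4.75 for id1 and 1.24 for id2a, and without cells under 3000 genes 5.64 for id1. Detection above 5 TPM gave 75.0% of cells with id1, 61.5% with id1 and id2a and 71.9% with 2 or more Id genes, and above 10 TPM 71.9%, 57.3% and 68.8%. The share of all genes past the threshold between the stages was 8.45%, but 3.71% with no filter on low values and 0.34% past 2 log2 units, and between endothelial and other populations 28.7%, 12.8% and 8.70%. Of all alternatives to the main comparisons, 69 stayed close to the reported value and 19 moved. Among the 32 levels by gene and population, 18 moved with the log2 of the mean TPM, under which and with all cells pooled EC2 rather than venous cells ranked first for id1. Between single populations, under these alternatives and without the 1 EPC in which id1 was listed at 0, a choice made after seeing the data, 24 differences past 1 log2 unit had 144 alternatives. Of these, 11 did not pass it, spread over 6 differences, and 1 reversed, that of id2a in macrophages minus endothelial cells with all cells pooled (0.47). Differences under 1 log2 unit are not in this count. Among them, id2b in population 3 minus endothelial cells went from -0.74 to 2.48 with the log2 of the mean TPM. Of the 3 genes most like id1, Spearman's correlation kept 1, and likewise for id2b. No paired analysis was possible because each stage is 1 sample. EC2 cells, erythrocytes and macrophages held only 2 cells each at 15-18 somites, which limits every value that rests on them.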
